A study of Homo sapiens with 12 samples.

Results

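NRF2, encoded by NFE2L2, is the transcription factor that switches on the antioxidant genes of the cell. A set of 10 genes of this pathway was followed here: NFE2L2 itself, its inhibitor KEAP1, and the target genes NQO1, HMOX1, GCLC, GCLM, TXNRD1, SRXN1, FTL and FTH1. They were chosen by symbol, and all 10 were found among the 12616 genes listed in the deposited table. RNA was measured in the human cutaneous melanoma cell lines MeWo and SkMel28. In both, doxycycline (Dox) switches on a short hairpin RNA that targets MITF, the transcription factor of the melanocyte lineage. Each line was kept for 8 days without Dox (control) or with 1 µg/ml Dox, and the 12 libraries form 4 groups of 3, named MeWo control, MeWo Dox, SkMel28 control and SkMel28 Dox. All 4 groups carried the hairpin, and no cells without it were given Dox, so that the hairpin and the drug cannot be told apart. Per the labels the medium differed with the line (EMEM for MeWo, RPMI for SkMel28, each with serum), whereas the methods of the study give RPMI for its human melanoma lines other than HBL. Line and medium therefore cannot be told apart either. The labels number the replicates but do not say that they came from separate cultures, and the p-values below measure only the spread between these libraries, which may be technical.

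In unstressed cells KEAP1 holds NRF2 in the cytoplasm and hands it to a ubiquitin ligase for degradation. Oxidants and electrophiles modify cysteines of KEAP1, NRF2 then escapes, enters the nucleus and binds antioxidant response elements together with a small MAF protein. The target genes reduce quinones, make glutathione, keep thioredoxin and peroxiredoxins reduced, break down haem and store iron. HMOX1 is in addition held down by the repressor BACH1, which competes for the same elements and is released by haem. NRF2 is controlled mostly through the stability of its protein, which mRNA levels do not show.

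Antioxidant response elements were looked for as letters near the start sites of the members, to show what such an element looks like in these genes. Promoter entries from RefSeq (hg38, 250 bases before to 50 after the start site) were held for 8 of the 10 members, all but HMOX1 and FTH1, and for 9527 of the listed genes. GCTGAGTCA, a fixed form of the core of the element, was searched on both strands from 10000 bases before to 1000 after the start site. The looser core TGACNNNGC, in which N is any base, was searched on both strands in the 300-base promoter. Read on its other strand, every GCTGAGTCA is also a match to the core. GCTGAGTCA was present in the 11000-base window of 3 of 8 members and of 13.7% of listed genes, and the core was present in the promoter of 2 of 8 members and of 15.3% of listed genes. The matches are printed 5′ to 3′ on the strand that reads the motif, with the motif in capitals and flanks in lower case.
NQO1, chr16:69726997-69727026, plus strand, 455 bases before the start site: ctcagattctGCTGAGTCActgtgactgcg
GCLC, chr6:53548238-53548267, minus strand, 3156 bases before the start site: cgcacaaagcGCTGAGTCAcggggaggcgg
FTL, chr19:48963931-48963960, minus strand, 1367 bases before the start site: ggcagcgactGCTGAGTCAtgctgagctca
GCLM, chr1:93909446-93909475, plus strand, 34 bases before the start site: tggaagacaaTGACTAAGCagaaatcgtag
TXNRD1, chr12:104215670-104215699, plus strand, 99 bases before the start site: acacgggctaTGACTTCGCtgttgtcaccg
TXNRD1, chr12:104215760-104215789, minus strand, 8 bases before the start site: ctgtgggaacTGACGGAGCcgaaggacgcc

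In GENCODE release 44 the printed NQO1 stretch lies in an exon of the divergent transcript NQO1-DT and the GCLC stretch in an intron of GCLC. The GCLM stretch and the second TXNRD1 stretch touch the annotated first exons of those genes, and the FTL stretch and the first TXNRD1 stretch are intergenic. Of the 8 members, 5 held a match to GCTGAGTCA or to the core in the window searched for it, and NFE2L2, KEAP1 and SRXN1 held none. The E-box forms TCACGTGA and TCATGTGA, searched on both strands as letters that MITF is known to bind, were found in the 300-base promoter of 0 of 8 members and of 2.86% of listed genes. GCTGAGTCA within the 300-base promoter was found in 0 of 8 members and 0.451% of listed genes. A match is a description of letters only, and a window without one says nothing of binding.

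Libraries held 2568187 to 3714608 reads, and values below are reads divided by the effective library size and multiplied by 1000000. In this unit 1 read is worth 0.278 to 0.389. MITF, the target of the hairpin, was at 657, 663 and 708 in MeWo control and at 451, 354 and 371 in MeWo Dox. In SkMel28 it was at 861, 739 and 792 in control and at 575, 578 and 552 in Dox, so the groups did not overlap in either line. The change was -0.79 (SE 0.11) in MeWo and -0.49 (SE 0.11) in SkMel28 on the log2(value + 1) scale. All 7 melanocytic markers searched were listed. Their summed level was 10977 to 11263 in MeWo control and 6047 to 7349 in MeWo Dox, and in SkMel28 it was 11378 to 12721 without Dox and 7571 to 7931 with it. None of the 3 keratinocyte or 3 endothelial markers was listed, and 1 of 4 fibroblast markers (LUM) and 1 of 3 leukocyte markers (CD68) were. Across genes, replicates correlated at 0.960 to 0.976 in MeWo Dox and at 0.979 to 0.985 in the other groups, and member calls that change without MeWo Dox replicate 1 are given both ways.

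In MeWo, 1 of the 10 members was called at an adjusted p under 0.05, namely SRXN1, which was 2.21-fold higher with Dox. For comparison, limma called 16.7% of all listed genes in MeWo, 8.58% higher and 8.12% lower. In SkMel28, 3 of the 10 were called: NQO1 rose 1.56-fold, NFE2L2 rose 1.66-fold and HMOX1 fell 3.83-fold. The background in SkMel28 was 10.9% of listed genes, 5.88% higher and 5.04% lower. The median change of the 10 members was 0.17 in MeWo and 0.06 in SkMel28, beside medians of 0 and 0.00286 over all listed genes. The members did not all move one way in either line. In bulk RNA of a cell line such as this, a change in every cell and a change in part of the cells cannot be told apart.

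**Figure D1:**
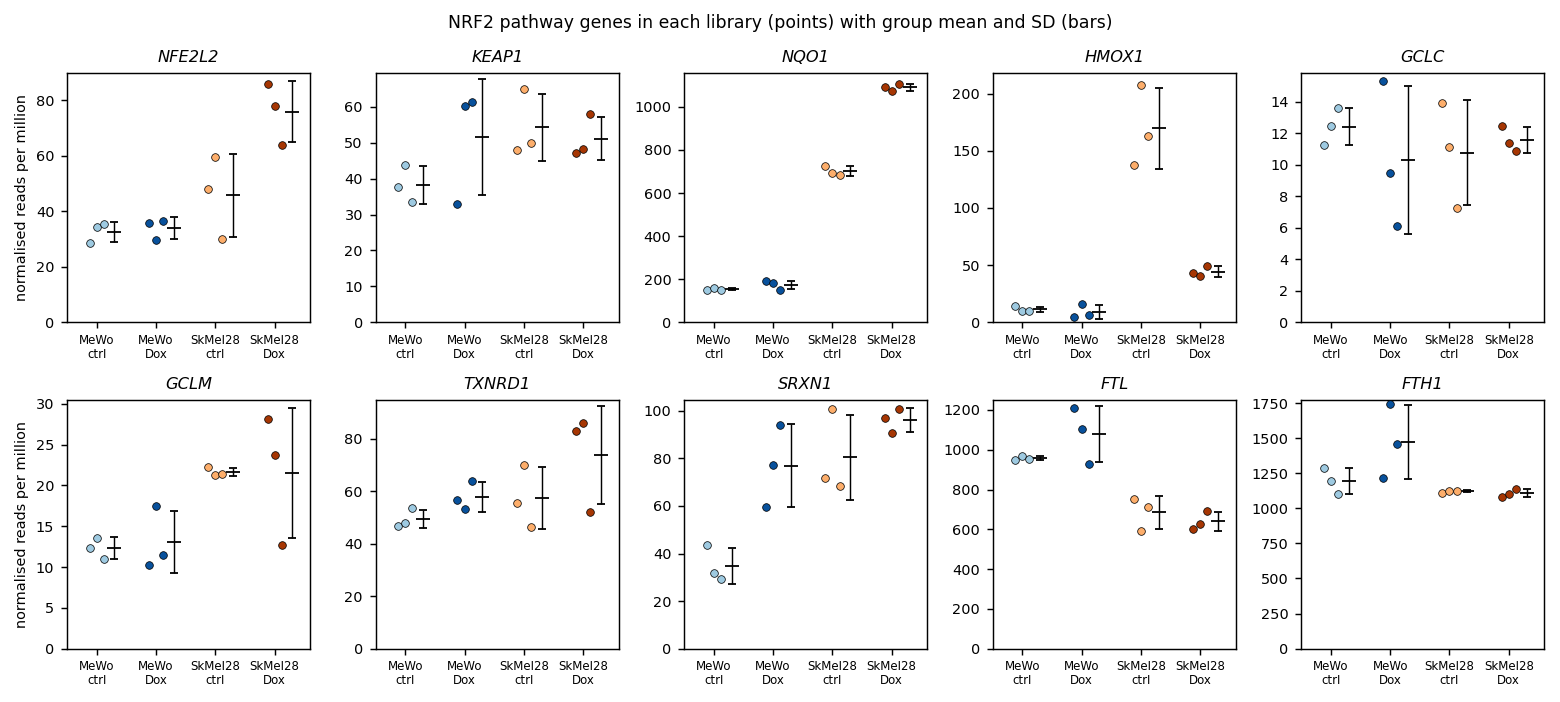
Level of each of the 10 genes in every library, in reads per effective library size times 1000000 on a linear axis from 0. Points are libraries, and the bar beside each group is the mean ± SD of 3 libraries. HMOX1 in SkMel28 fell from 138 to 208 in control to 40.4 to 49.3 with Dox, NQO1 in SkMel28 rose above 1000 in all Dox libraries, and SRXN1 in MeWo rose from 29.1 to 43.5 to 59.4 to 94.2.

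NFE2L2 (chromosome 2, 177218667 to 177392756, minus strand, hg38) encodes NRF2. It was at 28.5, 34.2 and 35.3 in MeWo control and at 35.7, 29.6 and 36.6 in MeWo Dox, with a change of 0.05 (SE 0.20, limma adjusted p = 0.8993). In SkMel28 it was at 47.9, 59.7 and 29.9 in control and at 85.8, 77.9 and 64.1 with Dox. Every Dox library of SkMel28 was above every control library, and NFE2L2 rose by 0.76 (SE 0.20, limma adjusted p = 0.0227). Control replicate 3 was the lowest of the 6 SkMel28 libraries, and without it the change was 0.49 (limma adjusted p = 0.136). The call was also lost without SkMel28 Dox replicate 1 (0.67, limma adjusted p = 0.1099) or 2 (0.74, limma adjusted p = 0.08723). It was further lost with scaling to the spike-ins (0.66, limma adjusted p = 0.08482), without the mean-variance trend (limma adjusted p = 0.05926) and with each line fitted alone (limma adjusted p = 0.09946), and so under 6 of 22 alternatives. The strand used for counting is not given in the sources used here, and the 3′ end of NFE2L2 overlaps HNRNPA3 on the opposite strand. HNRNPA3 was at 162, 247 and 192 in SkMel28 control and at 243, 221 and 139.6 with Dox, a change of -0.01 (SE 0.19) in SkMel28. The neighbour AGPS overlaps the 5′ end of NFE2L2 and was at 46.0 to 54.3 in SkMel28 control and 39.6 to 44.5 with Dox, with a change of -0.31 (SE 0.14) that was not called.

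KEAP1 (chromosome 19, 10486125 to 10503558, minus strand), the sensor that keeps NRF2 unstable, was not called in either line. It was at 37.7, 43.9 and 33.4 in MeWo control and at 32.9, 60.3 and 61.3 in MeWo Dox. Replicate 1 of MeWo Dox was just below the control range and the other Dox libraries were above it. The change in MeWo was 0.37 (SE 0.21, limma adjusted p = 0.24), and without MeWo Dox replicate 1 it was 0.66 (limma adjusted p = 0.0038). In SkMel28, KEAP1 was at 47.9, 65.1 and 49.8 in control and 47.2, 48.1 and 58.0 with Dox, which overlap, with a change of -0.08 (SE 0.21).

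NQO1 (chromosome 16, 69706996 to 69726668, minus strand) encodes the quinone reductase that is the most used readout of NRF2 activity. It was at 727, 694 and 686 in SkMel28 control and at 1095, 1074 and 1107 in SkMel28 Dox. The spread within each SkMel28 group was small, and the mean rose by 55.5%. On the log2 scale NQO1 rose by 0.64 (SE 0.10, limma adjusted p = 0.0005111). With scaling to the spike-ins, which lowers the median gene of SkMel28 by 0.08, the change was 0.54 (limma adjusted p = 0.05799). In MeWo, NQO1 was at 149.7, 159 and 152 in control and at 189, 181 and 151 with Dox. Replicate 3 of MeWo Dox was inside the control range, and the change of 0.17 (SE 0.10, limma adjusted p = 0.2747) was not called.

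HMOX1 (chromosome 22, 35380361 to 35394214, plus strand) encodes haem oxygenase 1, which opens haem and frees its iron. Its change in SkMel28 was the largest in size of the 10 members in either line. In SkMel28 it was at 138, 208 and 163 in control and at 43.0, 40.4 and 49.3 with Dox. The SkMel28 groups were far apart, and HMOX1 fell by 1.90 on the log2 scale (SE 0.30, limma adjusted p = 0.0004217), which is 73.9% of its control mean. The call was kept under all 22 alternatives tried, with changes from -2.04 to -1.74. NQO1 and HMOX1, which are both textbook NRF2 targets, thus went in opposite directions in the same SkMel28 libraries. CD68, the only leukocyte marker of 3 that was listed, was at 78.2 to 101 in SkMel28 without Dox and at 18.7 to 23.0 with it, while PTPRC and CD3E were not listed. LUM was at 10.9 to 13.3 in SkMel28 control and 6.04 to 8.91 with Dox. The part of these markers in the HMOX1 result was not tested.

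In MeWo the HMOX1 gene was close to the depth limit, with 13 to 49 reads per library. It was at 14.1, 10.1 and 9.72 in MeWo control and at 4.15, 15.5 and 6.44 in MeWo Dox. Replicate 2 of MeWo Dox was the highest MeWo library and the other Dox libraries were the lowest. The change in MeWo was -0.50 (SE 0.30, limma adjusted p = 0.2774), and it depended on the Dox library left out. Without MeWo Dox replicate 1 it was -0.13 (limma adjusted p = 0.7392), and without MeWo Dox replicate 2 it was -0.97 (limma adjusted p = 0.006318).

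FTL (chromosome 19, 48965309 to 48966879, plus strand) and FTH1 (chromosome 11, 61959718 to 61967634, minus strand) encode the light and heavy chains of ferritin, the shell that stores the iron which haem oxygenase frees. FTL was at 950.0, 968 and 956 in MeWo control and 1208, 1103 and 926 with Dox, and at 752, 593 and 709.7 in SkMel28 control and 601, 627 and 694 with Dox. The Dox and control libraries overlapped in each line, and the changes were 0.16 (SE 0.12) and -0.09 (SE 0.12). FTH1 was at 1113, 1126 and 1126 in SkMel28 control and at 1084, 1101 and 1140.4 with Dox, a change of -0.02 (SE 0.12) with a 95% interval of -0.27 to 0.23. The ferritin chains thus stayed uncalled in the line in which HMOX1 fell.

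FTH1 in MeWo was less settled. It was at 1288, 1193 and 1104 in control and at 1215, 1744 and 1458 with Dox, and replicate 1 of MeWo Dox lay inside the control range. The change was 0.29 (SE 0.12, limma adjusted p = 0.111), 0.42 without MeWo Dox replicate 1 (limma adjusted p = 0.002129) and 0.56 with scaling to the spike-ins (limma adjusted p = 0.02985). The spike-in scaling raises the median of all genes in MeWo by 0.22, and relative to that median the FTH1 change was 0.34. FTH1 overlaps BEST1 on the opposite strand, which was at 50.1 to 60.6 in MeWo control and 37.9 to 46.0 with Dox.

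GCLC (chromosome 6, 53497341 to 53616970, minus strand) and GCLM (chromosome 1, 93885199 to 93909456, minus strand) encode the catalytic and modifier subunits of glutamate-cysteine ligase, the enzyme that limits glutathione synthesis. GCLC ranged from 6.10 to 15.3 over the 12 libraries, with 18 to 50 reads each, and the 4 groups overlapped. Its changes were -0.33 (SE 0.28) in MeWo and 0.13 (SE 0.28) in SkMel28, and intervals of -0.92 to 0.26 and -0.45 to 0.72 show how large a change this depth could have missed. Without MeWo Dox replicate 1 the GCLC change in MeWo was -0.63 (limma adjusted p = 0.07831). GCLM was at 12.4, 13.6 and 11.0 in MeWo control and 10.2, 17.4 and 11.5 with Dox. In SkMel28 it was at 22.3, 21.3 and 21.5 in control and 28.2, 23.7 and 12.7 with Dox, where replicate 3 was the lowest of the line and the others the highest. GCLM changes were 0.05 (SE 0.26) in MeWo and -0.08 (SE 0.26) in SkMel28.

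TXNRD1 (chromosome 12, 104215779 to 104350307, plus strand) encodes thioredoxin reductase 1, which passes electrons from NADPH to thioredoxin. It was at 46.9, 47.8 and 53.4 in MeWo control and 56.5, 53.1 and 64.0 with Dox, and at 55.7, 70.1 and 46.4 in SkMel28 control and 83.1, 86.2 and 52.3 with Dox. The groups overlapped in each line. The changes of TXNRD1 were 0.22 (SE 0.18, limma adjusted p = 0.4503) in MeWo and 0.34 (SE 0.18, limma adjusted p = 0.2756) in SkMel28.

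SRXN1 (chromosome 20, 646615 to 653200, minus strand) encodes sulfiredoxin, which repairs peroxiredoxins that hydrogen peroxide has over-oxidised. It was at 43.5, 31.9 and 29.1 in MeWo control and at 59.4, 77.3 and 94.2 in MeWo Dox. The MeWo groups did not overlap, and SRXN1 rose by 1.12 (SE 0.19, limma adjusted p = 0.0004502). The call was kept under all 22 alternatives, with changes from 0.96 to 1.39. LUM, the listed fibroblast marker, was at 40.9 to 46.6 in MeWo control and 8.34 to 16.3 in MeWo Dox, while COL1A1, COL1A2 and PDGFRB were not listed, and its part in the SRXN1 result was not tested. In SkMel28, SRXN1 was at 71.8, 101 and 68.6 in control and at 97.1, 90.9 and 101 with Dox. Control replicate 2 of SkMel28 reached the Dox range, and the change of 0.28 (SE 0.19, limma adjusted p = 0.4091) was not called. With Dox, SRXN1 in MeWo reached the level that SkMel28 had without it.

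**Figure D2:**
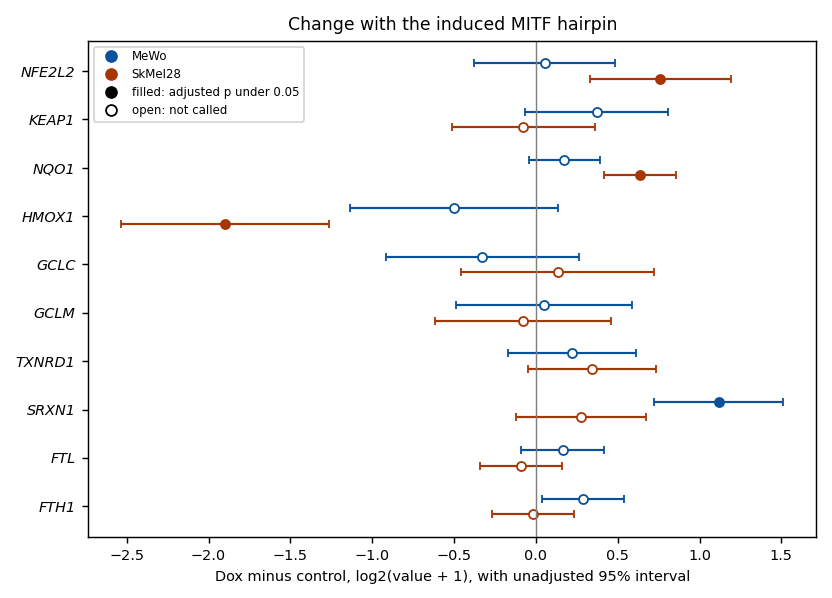
Change of each gene with Dox in MeWo (blue) and SkMel28 (brown), as Dox minus control on the log2(value + 1) scale with the unadjusted 95% interval from limma. Filled points passed an adjusted p of 0.05. The filled points are SRXN1 in MeWo at 1.12, and NFE2L2 at 0.76, NQO1 at 0.64 and HMOX1 at -1.90 in SkMel28.

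Whether the lines differed in their change was tested as the interaction, the MeWo change minus the SkMel28 change. With limma 0 of 10 members were called at an adjusted p under 0.05, against 7.09% of all listed genes. At an unadjusted p under 0.05 there were 4 (NFE2L2, NQO1, HMOX1 and SRXN1), against 25.1% of listed genes, edgeR called 1 (HMOX1) and DESeq2 called 3 (NQO1, HMOX1 and SRXN1). The difference was 1.40 (SE 0.43, limma adjusted p = 0.05475) for HMOX1, 0.84 (SE 0.26, limma adjusted p = 0.06112) for SRXN1 and -0.46 (SE 0.15, limma adjusted p = 0.06154) for NQO1. These 3 sat just outside the threshold, and SRXN1 passed it without MeWo control replicate 1 (1.01, limma adjusted p = 0.04113). Without MeWo Dox replicate 1, limma called HMOX1 (1.77, adjusted p = 0.0009516), SRXN1 (1.01, adjusted p = 0.003784), NQO1 (-0.53, adjusted p = 0.004364), KEAP1 (0.74, adjusted p = 0.01678) and FTH1 (0.44, adjusted p = 0.0162). With all libraries, limma also called HMOX1 (1.74, adjusted p = 0.003714) and SRXN1 (1.21, adjusted p = 0.007773) with spike-in scaling, NQO1 with upper-quartile scaling (-0.50, adjusted p = 0.04457) and HMOX1 with a pseudocount of 5 (1.48, adjusted p = 0.009567). Whether the changes of HMOX1, SRXN1 and NQO1 were called as different between the lines thus depended on the setting. NFE2L2 gave -0.71 (SE 0.29, limma adjusted p = 0.1374), and the 95% intervals of the other members included 0.

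More members were called between the lines than with Dox, and the same held for all listed genes. In control libraries 5 of 10 members were called between the lines, 4 higher in SkMel28 (NQO1, HMOX1, GCLM, SRXN1) and 1 lower (FTL). Among all listed genes 51.4% were called in this comparison, 26.6% higher and 24.8% lower in SkMel28, so that 5 of 10 is near the background. With Dox 6 of 10 were called, 4 higher in SkMel28 (NFE2L2, NQO1, HMOX1, GCLM) and 2 lower (FTL, FTH1). The background there was 53.6%, 28.0% higher and 25.6% lower, so that 6 of 10 is near it as well. These comparisons share no library with each other, but each shares its libraries with the changes with Dox given above. The median difference of the 10 members was 0.46 in control and 0.33 with Dox, beside 4.02e-05 and 0.04 over all listed genes.

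HMOX1 showed the widest gap of the members in control libraries, and NQO1 with Dox. The HMOX1 mean was 11.3 ± 2.43 (SD, n = 3) in MeWo control and 169.5 ± 35.3 (SD, n = 3) in SkMel28 control, 15.0-fold higher. With Dox the means were 8.71 ± 6.03 and 44.2 ± 4.53, 5.08-fold higher in SkMel28. The order of the 4 groups was SkMel28 control, SkMel28 Dox, MeWo control and MeWo Dox, and only the last 2 overlapped. For NQO1 the means were 153 ± 4.58 and 702 ± 21.6 in control, a 4.58-fold difference, and 174 ± 19.9 and 1092 ± 16.5 with Dox, a 6.28-fold difference. The NQO1 order was SkMel28 Dox, SkMel28 control, MeWo Dox and MeWo control, and again only the MeWo groups overlapped. All 21 alternatives kept the calls of HMOX1 and NQO1 between the lines with and without Dox.

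The remaining differences between the lines were smaller. SRXN1 was 2.31-fold higher in SkMel28 control than in MeWo control (34.8 ± 7.61 and 80.4 ± 17.8). With Dox its difference was 0.34 (SE 0.19, limma adjusted p = 0.1336), and it ranged from 0.17 without MeWo Dox replicate 1 (limma adjusted p = 0.4237) to 0.50 without MeWo Dox replicate 3 (limma adjusted p = 0.045). With spike-in scaling it was 0.12 (limma adjusted p = 0.6616). The order of SRXN1 was SkMel28 Dox, SkMel28 control, MeWo Dox, which overlapped as neighbours, and MeWo control below them. GCLM was 1.76-fold higher in SkMel28 in control libraries (limma adjusted p = 0.01797) and 1.65-fold higher with Dox (limma adjusted p = 0.04149). The first call was lost without MeWo control replicate 3 (0.70, limma adjusted p = 0.06377). The call with Dox was lost under 11 of 21 alternatives, among them 9 of the 12 fits that leave out 1 library (0.42 to 0.64, limma adjusted p = 0.05037 to 0.2159). The 3 libraries without which it stayed were MeWo control replicate 3, MeWo Dox replicate 2 and SkMel28 Dox replicate 3. FTL, in contrast, was lower in SkMel28, by 28.5% in control and 40.6% with Dox. With spike-in scaling the FTL difference in control was -0.34 (limma adjusted p = 0.128).

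The differences of NFE2L2 and KEAP1, the regulators, were smaller in value than those of NQO1 and HMOX1, the targets with the widest gaps. With Dox the NFE2L2 difference (1.13) exceeded those of the other targets in size. These were -0.75 for FTL, 0.64 for GCLM, -0.39 for FTH1, 0.34 for SRXN1, 0.32 for TXNRD1 and 0.24 for GCLC, all above KEAP1 in size. In control both regulators were below SRXN1 (1.18) and GCLM (0.77). They were above GCLC (-0.23), TXNRD1 (0.19) and FTH1 (-0.09) in size, and FTL (-0.49) was close to KEAP1. NFE2L2 was 2.24-fold higher in SkMel28 Dox than in MeWo Dox (limma adjusted p = 0.0001669), and in control libraries its difference was 0.43 (SE 0.20, limma adjusted p = 0.08958). Without SkMel28 control replicate 3 the control difference of NFE2L2 was 0.70 (limma adjusted p = 0.005011). With all libraries it was also called by edgeR (adjusted p = 0.04742), by DESeq2 (adjusted p = 0.04733) and by limma with spike-in scaling (adjusted p = 0.04686). KEAP1 gave 0.49 (SE 0.21, limma adjusted p = 0.0592) in control and 0.04 (SE 0.21) with Dox. The control difference of KEAP1 was called without MeWo Dox replicate 1 (limma adjusted p = 0.007194) or 2 (limma adjusted p = 0.04693), whose values enter it only through the shared spread. It was called with all libraries by edgeR (adjusted p = 0.04704) and by limma with spike-in scaling (adjusted p = 0.02737). For KEAP1 the MeWo control group had the lowest mean and overlapped neither SkMel28 control nor SkMel28 Dox, though it did overlap MeWo Dox. The other 3 groups overlapped. FTH1 was 24.7% lower in SkMel28 Dox than in MeWo Dox, and without MeWo Dox replicate 2 this was -0.26 (limma adjusted p = 0.057). GCLC and TXNRD1 were called in neither comparison, though without SkMel28 Dox replicate 3 TXNRD1 gave 0.55 with Dox (limma adjusted p = 0.01509).

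**Figure D3:**
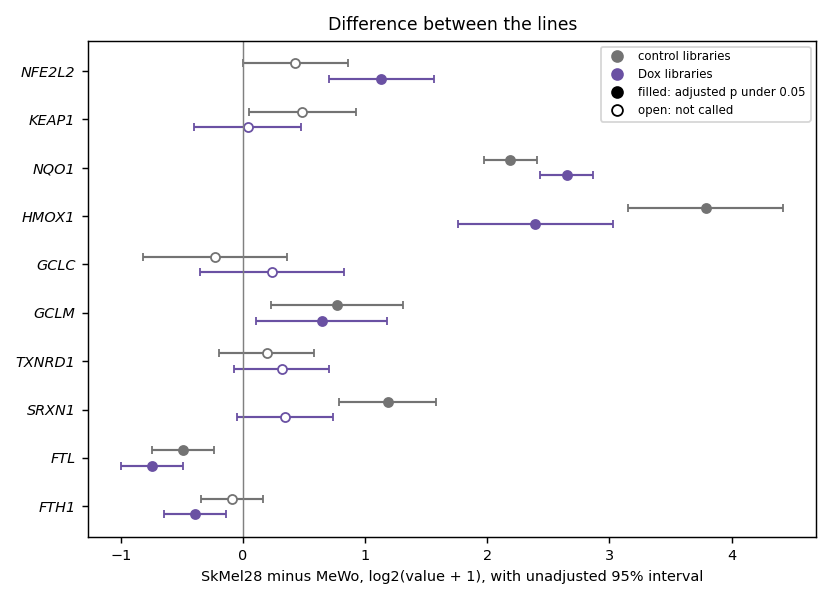
Difference between the lines for each gene, as SkMel28 minus MeWo on the log2(value + 1) scale with the unadjusted 95% interval from limma, in control libraries (grey) and in Dox libraries (purple). Filled points passed an adjusted p of 0.05. HMOX1 (3.79 in control, 2.39 with Dox) and NQO1 (2.19 and 2.65) lie far to the right of the other genes, and FTL (-0.49 and -0.75) lies to the left.

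The members differed in how tightly replicates agreed. The SD was 1.51% to 3.08% of the mean for NQO1 in the SkMel28 groups and 0.656% to 2.60% for FTH1 there. It was 69.2% for HMOX1 and 45.3% for GCLC in MeWo Dox, where counting of 24.3 and 30.3 reads on average would alone give 20.3% and 18.2%. The spread of KEAP1 in MeWo Dox (31.3%) and of NFE2L2 in SkMel28 control (32.7%) also went beyond counting error, at 8.23% and 8.28%. For GCLM in SkMel28 Dox the spread was 37.1%.

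Related genes were read from 6 lists holding 107 genes, of which 94 were listed in the table. The list counts are to be read beside the background over all listed genes. In MeWo that was 8.58% called as risen and 8.12% as fallen (16.7% in all), and for SkMel28 the shares were 5.88% and 5.04% (10.9% in all). The list of NRF2 regulators and partners had 13 listed genes. In MeWo 2 rose and 1 fell, with a median of 0.25, and in SkMel28 3 rose and 0 fell, with a median of 0.24. MAFF, a small MAF protein that pairs with NRF2, was at 62.5, 59.8 and 69.3 in MeWo control and 42.1, 25.4 and 34.9 with Dox, and fell by 0.91 (SE 0.16, limma adjusted p = 0.0005674). In SkMel28 the MAFF change was 0.46 (SE 0.16, limma adjusted p = 0.07175), and the difference between the lines was called (-1.37, SE 0.22, limma adjusted p = 0.001422). TXNIP, which binds and inhibits thioredoxin, rose 1.69-fold in MeWo and 2.99-fold in SkMel28, and this difference was called as well (-0.82, SE 0.17, limma adjusted p = 0.007695). NFE2L3, a relative of NFE2L2, rose in both lines, from 0.864 to 2.33 in MeWo control to 3.79 to 9.14 in MeWo Dox, and from at most 1.11 in SkMel28 control to 1.21 to 6.53 with Dox. Reads of NFE2L3 were only 3 to 6 per library in MeWo control and 1 to 4 in SkMel28 control. Its call was lost without MeWo control replicate 1 or MeWo Dox replicate 3 in MeWo (changes of at most 1.51, limma adjusted p = 0.05075 and 0.05216). In SkMel28 it was lost without control replicate 2 or 3 or Dox replicate 1 or 2 (1.22 to 1.48, limma adjusted p = 0.07946 to 0.1311).

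BACH1, the repressor of HMOX1, was the third gene of this list called in SkMel28, and it is singled out here after its values were seen. It was at 6.68, 15.9 and 6.51 in SkMel28 control and at 18.1, 23.4 and 15.4 in SkMel28 Dox. Control replicate 2 of SkMel28 lay within the Dox range, and BACH1 rose by 0.99 (SE 0.28, limma adjusted p = 0.02969). The call was lost under 6 of 22 alternatives, among them without SkMel28 control replicate 1 or 3 or SkMel28 Dox replicate 1 or 2 (0.79 to 1.01, limma adjusted p = 0.0811 to 0.1494). In MeWo the BACH1 change was 0.35 (SE 0.28, limma adjusted p = 0.4213).

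Of 19 listed genes of glutathione synthesis and use, 2 rose and 2 fell in MeWo (median -0.08), and 0 rose and 4 fell in SkMel28 (median -0.05). GSTO1, an omega-class glutathione transferase, fell in both lines, with changes of -1.30 (SE 0.13, limma adjusted p = 1.652e-06) in MeWo and -1.31 (SE 0.13, limma adjusted p = 3.17e-06) in SkMel28. Its values were 921 to 995 in MeWo control and 309 to 472 with Dox, and 1039 to 1084 in SkMel28 control and 399.6 to 459 with Dox. The difference of its changes was 0.01, with a 95% interval of -0.37 to 0.39. CHAC1, which degrades glutathione, rose in MeWo by 0.93 (SE 0.28, limma adjusted p = 0.03324), a call lost without MeWo control replicate 1 or 2 or MeWo Dox replicate 1 or 2 (0.69 to 0.99, limma adjusted p = 0.07073 to 0.1342). The other genes that fell in SkMel28, named after their values were seen, were GPX1 and GPX4, glutathione peroxidases, and GSTP1. The GPX1 call was lost without MeWo control replicate 2 or any 1 of the SkMel28 libraries (-0.52 to -0.44, limma adjusted p = 0.05427 to 0.1487). The GPX4 call was lost without any SkMel28 library other than control replicate 1 (-0.70 to -0.60, limma adjusted p = 0.06583 to 0.1137), and that of GSTP1 was kept under all 22 alternatives.

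Among 16 listed thioredoxins, peroxiredoxins, catalase and superoxide dismutases, 3 rose and 3 fell in MeWo and 1 rose and 1 fell in SkMel28. PRDX1, one of the peroxiredoxins that sulfiredoxin repairs, went in opposite directions in the lines. It was at 703, 604 and 665 in MeWo control and 760.3, 1019 and 962 with Dox, and at 1129, 1216 and 1209 in SkMel28 control and 625, 628 and 719.8 with Dox. PRDX1 rose by 0.47 (SE 0.12, limma adjusted p = 0.01197) in MeWo and fell by 0.85 (SE 0.12, limma adjusted p = 0.0001233) in SkMel28, and the difference of the changes was 1.32 (SE 0.17, limma adjusted p = 0.0001796). The MeWo call of PRDX1 was lost without MeWo control replicate 2 or MeWo Dox replicate 2 or 3 (0.38 to 0.42, limma adjusted p = 0.05184 to 0.07539), and the other PRDX1 calls were kept. Of the other peroxiredoxins that sulfiredoxin repairs, named after their values were seen, PRDX4 rose (0.71, limma adjusted p = 0.0004081) and PRDX3 fell (-0.57, limma adjusted p = 0.04347) in MeWo, and PRDX2 gave 0.14 (SE 0.27) there. The PRDX4 call was kept under all 22 alternatives. That of PRDX3 was lost under 15 of 22, among them without any library other than MeWo Dox replicate 1 or 3 or SkMel28 control replicate 2 (-0.64 to -0.32, limma adjusted p = 0.05085 to 0.2091). SESN3, a sestrin, rose 2.36-fold in MeWo and 2.01-fold in SkMel28. SOD2, the mitochondrial superoxide dismutase, fell by 0.92 (SE 0.16) in MeWo.

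In the list of NADPH supply, which feeds NQO1, TXNRD1 and glutathione reductase, 0 of 11 listed genes rose in either line. IDH1, the cytosolic isocitrate dehydrogenase, fell by 49.3% in MeWo and 32.0% in SkMel28, and NNT, named after its values were seen, also fell in MeWo. The IDH1 call in SkMel28 was lost without control replicate 1 or 3 or any of the Dox replicates (-0.59 to -0.49, limma adjusted p = 0.05842 to 0.1157). The NNT call was lost without MeWo control replicate 3 or MeWo Dox replicate 3 (-0.42 and -0.43, limma adjusted p = 0.1028 and 0.08569). Of 18 listed genes of quinone and carbonyl reduction, conjugation and export, 1 rose and 3 fell in MeWo, and 1 rose and 2 fell in SkMel28. CBR3, a carbonyl reductase, rose 1.71-fold and EPHX1, the microsomal epoxide hydrolase, fell 3.37-fold in MeWo, and both calls were lost when MeWo was fitted alone (limma adjusted p = 0.05958 and 0.05128). EPHX1 had few reads, 22 to 30 per library in MeWo control and 3 to 12 in MeWo Dox. In SkMel28 ABCC4, an efflux pump, rose 1.70-fold and AKR1A1, an aldehyde reductase, fell 2.82-fold. The ABCC4 call was lost without any control replicate or Dox replicate 1 or 3 of SkMel28 (0.67 to 0.79, limma adjusted p = 0.0544 to 0.1161). The median change of this list was -0.22 in MeWo and -0.08 in SkMel28, the line in which NQO1 rose.

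Of 17 listed genes of haem and iron handling, 1 rose and 3 fell in MeWo (median -0.26), and 1 rose and 1 fell in SkMel28 (median 0.00816). TFRC, the transferrin receptor that brings iron into the cell, moved in opposite directions. It was at 71.1, 72.7 and 85.2 in MeWo control and 35.7, 55.0 and 24.7 with Dox, and at 56.5, 39.3 and 50.2 in SkMel28 control and 92.9, 86.6 and 92.5 with Dox. The groups did not overlap in either line. TFRC fell by 1.04 (SE 0.21, limma adjusted p = 0.00239) in MeWo and rose by 0.90 (SE 0.21, limma adjusted p = 0.009672) in SkMel28, and the difference of the changes was -1.94 (SE 0.30, limma adjusted p = 0.001066). The TFRC call in MeWo was lost when that line was fitted alone (limma adjusted p = 0.09262), and that in SkMel28 was lost without control replicate 2 (0.76, limma adjusted p = 0.05558). ACO1, the iron regulatory protein 1 that doubles as cytosolic aconitase, fell by 39.9% in SkMel28, where HMOX1 also fell. Its call was lost without control replicate 1 or 2 or Dox replicate 1 or 2 (-0.79 to -0.54, limma adjusted p = 0.06031 to 0.1697). MT2A, a metallothionein that binds metals, rose 1.29-fold in MeWo, a call lost without any of the MeWo control replicates (0.35 to 0.37, limma adjusted p = 0.05359 to 0.06635).

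**Figure D4:**
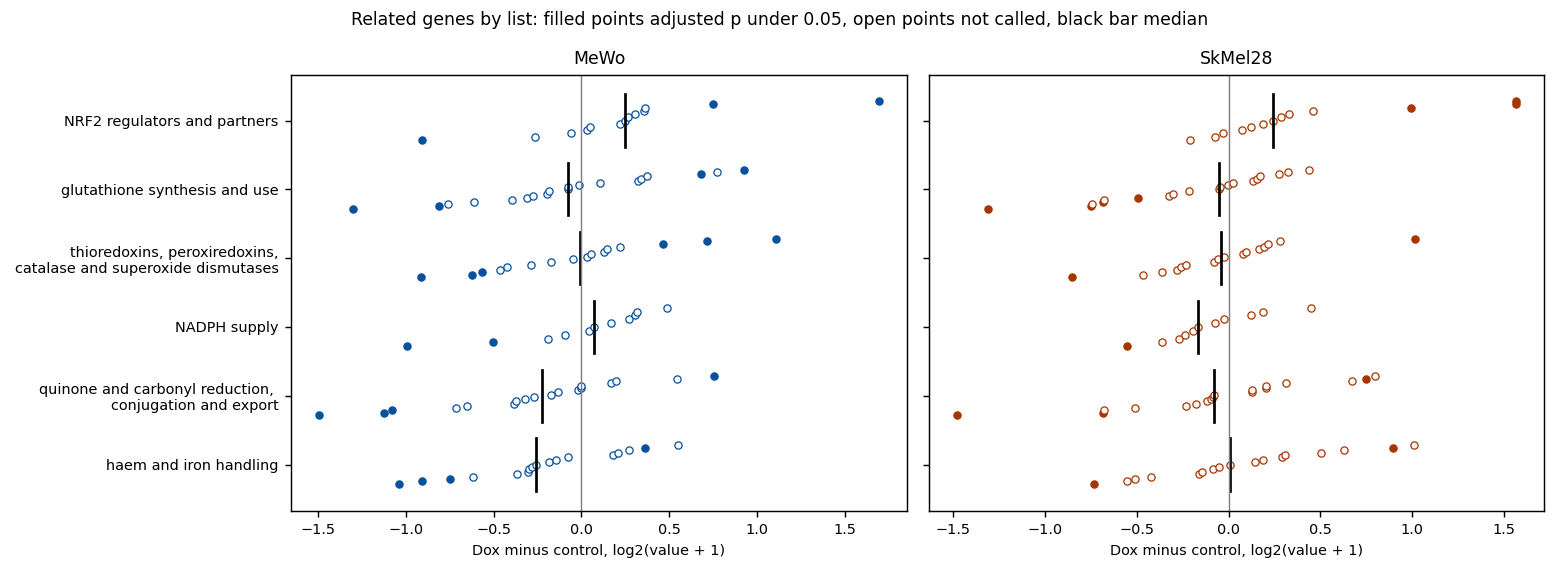
Change with Dox of the listed genes of each related list, as Dox minus control on the log2(value + 1) scale, in MeWo (left) and SkMel28 (right). Each point is a gene, filled where its adjusted p was under 0.05, and the black bar is the median of the list. Medians stay between -0.26 and 0.25, while single genes reach from -1.49 (EPHX1, MeWo) to 1.69 (NFE2L3, MeWo), both genes with few reads.

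The genes whose pattern over the 12 libraries was most like that of HMOX1, by the Pearson correlation of log2(value + 1), were ASRGL1 (0.988), IVNS1ABP (0.987) and MIF (0.986), out of 9665 genes compared. ASRGL1 had means of 6.05 in MeWo control, 5.09 in MeWo Dox, 125 in SkMel28 control and 35.5 in SkMel28 Dox, an order and a range close to those of HMOX1. These coefficients rest mostly on the difference between the lines, share the same libraries and are a description only.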

How the data were processed

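Total RNA of 12 libraries was sequenced at the 3′ end with the QuantSeq Forward kit. The submitters' processing notes name FastQC 0.11.7, cutadapt 2.8, STAR 2.5.1b, edgeR and hg38. The counting tool, annotation and strand are not given in the sources used here. The deposited values are a normalised signal: read counts per gene were scaled by the authors to reads per 1000000 of an effective library size. All values (100%) were whole multiples of 1 read within 0.01 reads, so counts could be recovered. The totals ranged from 2568187 to 3714608 reads, which limits members with few reads (from 13), and reads without molecular identifiers are not independent molecules. Of 12683 features 67 spike-ins were set aside, and low genes had been removed before deposition, so that every gene reached 1 in at least 3 libraries and all 10 members passed.

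The log2(value + 1) values were fitted in R 4.3.3 by limma 3.58.1 (lmFit, eBayes with trend) over 4 group means. Fold changes are ratios of group means, and log2 changes understate those of low genes. P-values were two-sided and adjusted by Benjamini-Hochberg over all 12616 genes of each of 5 contrasts, and genes were called under 0.05. Alternatives were edgeR 4.0.16 quasi-likelihood and DESeq2 1.42.0 on recovered reads, upper-quartile and spike-in scaling, pseudocounts of 0.1 and 5, a filter of 5 in 3 libraries, no trend, a replicate block, each line alone, and leaving out each library. The fit was tested on simulated data. The members and lists were chosen with earlier results of these data known. Named from each list were the called genes with the largest rise and fall per line (mean of at least 5), and for HMOX1 the 3 genes most like it.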

Additional observations from a re-analysis of the deposited data

Results flagged for a closer look

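With the settings of the report, limma called 0 of 10 members in the interaction test, and 1 to 5 under some alternatives. Over all listed genes 7.09% were called in this test. Other genes of the related lists that were called, not named by the rule, were GPX1, GPX4, MGST1, SLC3A2, PRDX4, PIR, SLC48A1, SLC11A2 and PCBP1. Of 21 alternatives, the call was lost under 15 for PCBP1, 12 each for MGST1, PRDX4 and SLC48A1, and 9 for GPX4. It was lost under 6 for GPX1, 3 for SLC11A2 and 2 each for SLC3A2 and PIR. MGST1 had 0 to 1 reads per library in MeWo control and 1 to 4 in MeWo Dox. Among the named genes of the lists 8 were called, given here as MeWo change minus SkMel28 change on the log2(value + 1) scale. The named genes were picked for a large called change within a line of these data, which favours a difference. The count of 8 is therefore a description only. The difference was -1.94 for TFRC, -1.37 for MAFF, -1.13 for ABCC4 and -0.82 for TXNIP, whose changes were lower in MeWo. It was 1.32 for PRDX1, 1.16 for AKR1A1, 0.99 for CBR3 and 0.51 for MT2A, whose changes were higher in MeWo. The calls of TFRC, MAFF, PRDX1 and AKR1A1 were kept under all 21 alternatives, and that of TXNIP was lost with spike-in scaling. The CBR3 call was lost without MeWo control replicate 2, SkMel28 control replicate 3 or SkMel28 Dox replicate 1 (0.88 to 0.90, limma adjusted p = 0.05854 to 0.06053). The ABCC4 call was lost without MeWo control replicate 2 or 3, MeWo Dox replicate 2 or 3, SkMel28 control replicate 2 or 3 or SkMel28 Dox replicate 1 (-1.15 to -0.95, limma adjusted p = 0.05573 to 0.0806). The MT2A call was lost without 9 of the 12 libraries, all but MeWo Dox replicate 1, SkMel28 control replicate 2 and SkMel28 Dox replicate 3 (0.46 to 0.52, limma adjusted p = 0.051 to 0.1058).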

How the results depend on the processing

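Over 22 alternatives no called change of a member turned direction. With spike-in scaling, 2 members rather than 1 were called in MeWo and 1 rather than 3 in SkMel28. The interaction, with 0 calls, gave 1 with upper-quartile scaling, 2 with spike-in scaling, 1 with a pseudocount of 5, 1 with edgeR and 3 with DESeq2. Leaving out 1 library gave 1 to 3 called members in MeWo and 0 to 5 for the interaction, the highest of each without MeWo Dox replicate 1. Under spike-in scaling the median gene shifted by 0.22 in MeWo, -0.08 in SkMel28 and 0.32 for the interaction, and the cause of the lost and gained calls was not tested. Over all genes, 2107 calls in MeWo became 813 when MeWo was fitted alone and 1281 to 3913 without 1 library. The 1378 calls in SkMel28 became 784 to 2042 without 1 library, and the 894 interaction calls became 1519 with spike-in scaling, 554 without the trend and 449 to 3115 without 1 library. With the replicate number as a block (replicate block), the members called were 1 in MeWo, 3 in SkMel28, 0 for the interaction, 6 rather than 5 between control groups (KEAP1 added, limma adjusted p = 0.04338) and 6 between Dox groups. Deviations of libraries with the same number correlated at -0.26 to 0.05 in MeWo and -0.08 to 0.26 in SkMel28, so the numbers are not taken as pairs. Depth limits HMOX1 in MeWo, GCLC and GCLM, which had as few as 13, 18 and 32 reads. Of the related genes it also limits NFE2L3, EPHX1 and MGST1, with as few as 1, 3 and 0 reads.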
